A study of Mus musculus with 4 samples.

Results

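The ATF4 stress response genes described here are 10 genes of the integrated stress response: Atf4, Ddit3 and Cebpb, which encode transcription factors, Trib3 and Ppp1r15a, which encode inhibitors of the response, Chac1, Sesn2 and Ddit4, which encode regulators of redox state and growth, and Vldlr and Gdf15, which encode a receptor and a secreted factor. They were taken by symbol from the 24527 gene symbols of a table of read counts in mouse B16F10 melanoma cells. All 10 were found, and all 10 were among the 12728 genes whose mean level reached 1 CPM (reads of a gene scaled to a common library total, with TMM factors between libraries). Trib3 and Ppp1r15a were chosen by their spheroid to tumor ratio, which is among the highest in the table, so that ratio is given for every gene only as a description. For Trib3 and Ppp1r15a, other ratios that include the spheroid or the tumor are not independent of that choice.

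Each of 4 conditions was represented by 1 library, all of wild-type genotype. These were B16F10 cells in 2D monoculture, B16F10 cells in 2D co-culture with NIH/3T3 mouse fibroblasts, B16F10 cells from spheroids formed with NIH/3T3 fibroblasts in hanging drops, and a tumor formed by B16F10 cells under the skin of one-year-old female C57BL/6 mice, injected in both flanks. The study asked how far tumor cells in the spheroid resemble those of the tumor in gene expression. According to the methods, the cells were a B16F10 line that carries a green fluorescent protein and were isolated from the cultures by sorting for it, without dead cells. The methods give DMEM for setting up spheroids and RPMI for keeping B16F10 cells. The medium of the fluorescent line and of the sequenced 2D cultures is not given in the sources used here. Medium and form of culture therefore cannot be told apart. The tumor cells are described as sorted, but the label of the tumor library describes snap-frozen tissue. The methods describe replicate RNA preparations, and whether these were pooled into the single libraries is not given in the sources used here.

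The libraries held between 118896900 and 150028663 reads on genes. With a single library for each condition, differences could not be checked against replicates and no test was made. Intervals are 95% exact intervals that cover counting error only. The melanocyte markers were high as a sum in every library, from 11420 to 20122 CPM, but single markers differed. With 1 CPM added, 3 of the 8 were over 2-fold lower in the spheroid than in the monoculture and 0 over 2-fold higher. The shares of all genes there were 17.9% and 11.2%. In the tumor, 1 was over 2-fold lower than in the monoculture and 0 over 2-fold higher, beside 18.2% and 14.8% of all genes. In the tumor library, the summed level was 1931 CPM for myeloid markers (led by Lyz2, 1032 CPM), 3194 CPM for fibroblast markers (Col3a1, 1307 CPM), 310 CPM for endothelial markers (Pecam1, 99.4 CPM) and 4209 CPM for skeletal muscle markers (Acta1, 1360 CPM). In the culture libraries these sums were at most 30.0 CPM for myeloid, 78.7 CPM for endothelial and 7.35 CPM for muscle markers. Fibroblast markers summed to 683 CPM in 2D co-culture, 37.4 CPM in spheroids and 19.7 CPM in monoculture. The part of other cells in each level was not tested. In such bulk libraries, fewer cells of a type and less RNA per cell cannot be told apart.

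In the integrated stress response, kinases that sense a lack of amino acids, unfolded proteins in the endoplasmic reticulum, double-stranded RNA or heme deficiency phosphorylate the translation factor eIF2. General protein synthesis falls, while the mRNA of ATF4 is translated more efficiently. ATF4 then induces genes for amino acid supply and redox balance, together with the factor CHOP and the inhibitors that end the response. The amount of ATF4 protein is set largely by translation, which read counts do not measure. Many targets of ATF4 carry a C/EBP-ATF response element, a composite of the sites that bind C/EBP and ATF factors.

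Promoters of all 10 genes were found in RefSeq (build GRCm38.p6), as 12 windows from 250 bases before to 50 bases after a transcription start. On both strands, the C/EBP-ATF element was searched as TGATGNAA, the cyclic AMP response element as TGACGTCA, the hypoxia element as ACGTG and the endoplasmic reticulum stress response element by its name, with its CCAAT and CCACG parts. The 4 stretches below are shown because they hold the elements through which ATF and C/EBP factors are known to act. They are written 5' to 3' along the strand of the gene, and capitals mark the C/EBP-ATF element in the first 3, where it lies on the opposite strand, and the cyclic AMP response element in the last.
Chac1 (chr2:119350993-119351112, plus strand): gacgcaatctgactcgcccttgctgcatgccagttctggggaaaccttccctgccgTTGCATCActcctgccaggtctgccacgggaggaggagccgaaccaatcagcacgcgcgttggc
Trib3 (chr2:152344031-152344150, minus strand): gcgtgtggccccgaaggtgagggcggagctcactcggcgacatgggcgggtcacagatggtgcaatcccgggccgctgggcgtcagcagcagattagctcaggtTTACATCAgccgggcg
Vldlr (chr19:27216770-27216889, plus strand): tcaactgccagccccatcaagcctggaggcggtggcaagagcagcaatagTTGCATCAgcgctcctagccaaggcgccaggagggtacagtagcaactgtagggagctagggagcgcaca
Ppp1r15a (chr7:45526239-45526358, minus strand): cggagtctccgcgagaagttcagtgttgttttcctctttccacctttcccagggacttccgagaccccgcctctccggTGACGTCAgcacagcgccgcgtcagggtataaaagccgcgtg

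The C/EBP-ATF element was found in 3 of the 10 genes. It lay 193 bases before the start of Chac1, 14 bases after the start of Trib3 and 200 bases before the start that belongs to 1 of 2 windows of Vldlr. It was present in 3.97% of the 32851 promoters searched, and in 4.51% of genes. The cyclic AMP response element lay 12 bases before the start of Ppp1r15a and was in 1.79% of all promoters. The hypoxia element was in 4 of the 10 genes (Ppp1r15a, Gdf15, Ddit4 and Ddit3) against 21.78% of all genes. The endoplasmic reticulum element was in no window of the 10 genes and in 0.119% of all promoters. Matches to different motifs did not overlap, and a match is a description of the letters, not of binding. Elements outside the windows or with other letters were not searched, so a gene without a match may still carry the element.

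Summed over the 10 genes, the level was 1579 CPM in monoculture, 1975 CPM in 2D co-culture, 6193 CPM in spheroids and 745 CPM in the tumor. These sums correspond to 0.155%, 0.19%, 0.562% and 0.0867% of the reads of each library. The spheroid library had the highest level for 9 of the 10 genes, and the tumor had the highest for Vldlr. The tumor had the lowest level for 7 genes. The lowest level lay in the 2D co-culture for Ddit4 and Vldlr and in the 2D monoculture for Gdf15.

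**Figure D1:**
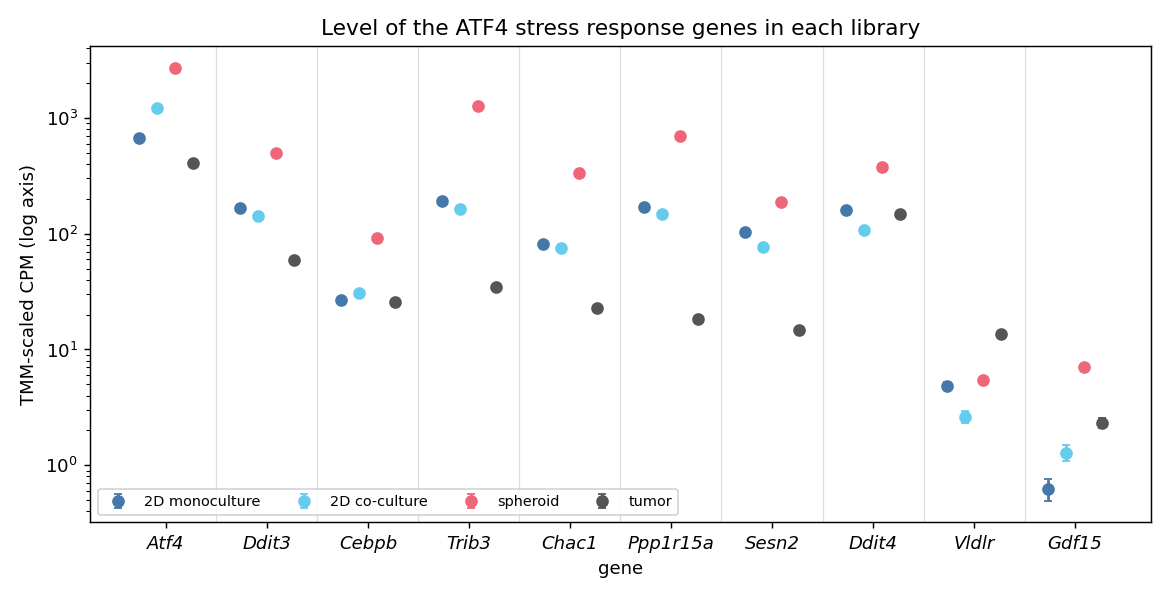
Level of each of the 10 genes in the 4 libraries, in TMM-scaled CPM on a log axis. Points are the single library of each condition and bars the 95% counting interval, which is mostly smaller than the point. The spheroid point is the highest for 9 genes, from 2713 CPM for Atf4 to 7.04 CPM for Gdf15, and the tumor point is the highest for Vldlr, at 13.5 CPM.

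Atf4, the factor from which the response is named (chr15:80255184-80257541, mm10, 3 exons), had 671 CPM in monoculture, 1229 CPM in 2D co-culture, 2713 CPM in spheroids and 407 CPM in the tumor. It stood apart from most of the other genes in the 2D co-culture, where it was already 1.83-fold above the monoculture (log2 ratio 0.87, interval 0.86 to 0.88). In the spheroid it was 4.04-fold above the monoculture and 2.21-fold above the co-culture, and in the tumor it was 1.65-fold below the monoculture.

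Ddit3 encodes CHOP, a factor induced by ATF4 that is linked to cell death under lasting stress (chr10:127290774-127296288, 4 exons). Its level was 168 CPM in monoculture, 141 CPM in 2D co-culture, 499 CPM in spheroids and 58.9 CPM in the tumor. The spheroid was 2.97-fold above the monoculture (log2 ratio 1.57, interval 1.55 to 1.59). The exons of Ddit3 share 7.64% of their bases with Mars on the opposite strand, and since the strand setting of the counting is not given, reads of that stretch cannot be assigned.

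Cebpb encodes a C/EBP factor that pairs with ATF4 and CHOP (chr2:167688915-167690418, 1 exon). It had 27.0 CPM in monoculture, 31.0 CPM in 2D co-culture, 92.5 CPM in spheroids and 25.8 CPM in the tumor. The spheroid stood alone, 3.42-fold above the monoculture, and the other libraries lay close together. A stretch of 320 bases of Cebpb is 99.4% identical to a transcript of Tmem189, which is also in the table, so its counts are uncertain where the counting could split such reads.

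Trib3 encodes a pseudokinase that binds ATF4 and CHOP and restrains them (chr2:152337422-152344032, 4 exons). It had 191 CPM in monoculture, 163 CPM in 2D co-culture, 1279 CPM in spheroids and 34.5 CPM in the tumor. The spheroid was 6.68-fold above the monoculture (log2 ratio 2.74, interval 2.72 to 2.76) and 7.83-fold above the co-culture, which placed Trib3 at ranks 40 and 30 of the 12728 genes. These ranks rest on the spheroid level that also chose Trib3, so they are not independent of that choice. The stretch of Trib3 with the C/EBP-ATF element is printed above.

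Ppp1r15a encodes GADD34, which directs a phosphatase to eIF2 and so reverses the phosphorylation that starts the response (chr7:45522916-45526268, 2 exons). It had 171 CPM in monoculture, 148 CPM in 2D co-culture, 700 CPM in spheroids and 18.2 CPM in the tumor. The spheroid was 4.09-fold above the monoculture, whereas the tumor was 9.42-fold below it. Ppp1r15b, the constitutive partner of the same phosphatase, covered a smaller range, with 161 CPM, 261 CPM, 284 CPM and 105 CPM in the same order of libraries.

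Chac1, which encodes an enzyme that degrades glutathione (chr2:119351229-119354381, 3 exons), had 82.0 CPM in monoculture, 74.5 CPM in 2D co-culture, 335 CPM in spheroids and 22.6 CPM in the tumor. It was 4.08-fold higher in the spheroid than in the monoculture and 3.63-fold lower in the tumor than in the monoculture. The 2D cultures differed by 1.1-fold.

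Sesn2 encodes a sestrin, a leucine sensor that restrains the growth kinase mTORC1 (chr4:132492032-132510501, 10 exons). Its level was 103 CPM in monoculture, 77.4 CPM in 2D co-culture, 186 CPM in spheroids and 14.6 CPM in the tumor. The spheroid was 1.81-fold above the monoculture, while the tumor was 7.04-fold below it (log2 ratio -2.82, and -1.52 when corrected for GC content and length, that is, with the median ratio of genes of like GC content and transcript length removed). Its relative Sesn1, better known as a p53 target, had 19.0 CPM, 13.0 CPM, 10.3 CPM and 32.6 CPM, with the tumor highest and the spheroid lowest.

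Ddit4 encodes REDD1, another inhibitor of mTORC1, induced by ATF4 and also by hypoxia and glucocorticoids (chr10:59949669-59951834, 3 exons). It had 160 CPM in monoculture, 107 CPM in 2D co-culture, 376 CPM in spheroids and 148 CPM in the tumor. The spheroid was 2.35-fold above the monoculture. The tumor and the monoculture lay within 1.08-fold of each other, unlike for the other growth inhibitor, Sesn2.

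Vldlr, a receptor for lipoproteins (chr19:27216484-27254231, 19 exons), had 4.88 CPM in monoculture, 2.61 CPM in 2D co-culture, 5.41 CPM in spheroids and 13.5 CPM in the tumor. Spheroid and monoculture differed by 1.11-fold, and the counting interval of the log2 ratio reached from 0 to 0.30. The tumor was 2.77-fold above the monoculture.

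Gdf15 encodes a secreted stress factor that acts on appetite through the hindbrain (chr8:70629393-70632456, 2 exons). It had the fewest reads of the 10 genes in every library but the spheroid, with 88 in the 2D monoculture, 147 in the 2D co-culture, 958 in the spheroid and 379 in the tumor. The levels were 0.618 CPM (0.495 to 0.761), 1.28 CPM (1.08 to 1.51), 7.04 CPM (6.6 to 7.5) and 2.33 CPM (2.11 to 2.58). None of these intervals overlapped, and the spheroid was 11.4-fold above the monoculture (log2 ratio 3.51, interval 3.19 to 3.84).

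The order of the levels between genes, compared per kilobase of transcript, was led by Atf4 in all 4 libraries, from 236 CPM per kb in the tumor to 1573 CPM per kb in the spheroid. Ddit3 came next in both 2D cultures, with 189 and 159 CPM per kb, and Trib3 after it. In the spheroid, Trib3 (631 CPM per kb) stood above Ddit3 (561 CPM per kb). In the tumor, Ddit4 took the place after Atf4, with 84.4 CPM per kb, and Cebpb (17.1 CPM per kb) and Trib3 (17.0 CPM per kb) did not differ beyond counting error. Vldlr and Gdf15 were last in every library, at no more than 4.55 CPM per kb.

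Between spheroid and 2D monoculture, 8 of the 10 genes were over 2-fold higher and 0 were over 2-fold lower, counted with 1 CPM added to each value. Over all 12728 genes, 11.2% were over 2-fold higher and 17.9% over 2-fold lower. The genes that stayed under 2-fold were Sesn2 and Vldlr. The median log2 ratio of the 10 genes was 1.88, beside 0.05 over all genes, and 7 of them lay in the upper 5% of all ratios. Without Trib3 and Ppp1r15a, 6 of the other 8 genes were over 2-fold higher and the median was 1.65.

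Between the 2D cultures, none of the genes passed 2-fold with 1 CPM added, although Gdf15 was 2.08-fold higher in the co-culture with nothing added. Against the background of 3.79% of all genes over 2-fold higher and 9.51% over 2-fold lower in the co-culture, 0 of the 10 genes were called in either direction. Atf4, Cebpb and Gdf15 were above their monoculture level and the other 7 were below it, with a median log2 ratio of -0.22. The lowest ratio belonged to Vldlr, at -0.90 (interval -1.1 to -0.7). After the correction for GC content and length, Vldlr was at -0.13 (0.07 with 1 CPM added) and the lowest ratio was that of Ddit4, at -0.73.

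Between spheroid and 2D co-culture, both grown with NIH/3T3 cells, 9 of the 10 genes were over 2-fold higher in the spheroid and 0 over 2-fold lower, where the background was 9.54% and 8.46% of all genes. The median log2 ratio was 1.81, beside -0.01 over all genes. Trib3 (2.97), Gdf15 (2.45), Ppp1r15a (2.24) and Chac1 (2.17) had the highest log2 ratios. Trib3 and Ppp1r15a were chosen by a ratio in which the spheroid is also the numerator. Their ratios here, and the count and median that include them, are therefore not independent of that choice. Vldlr, the gene not counted, had a log2 ratio of 1.05 with nothing added and of 0.83 with 1 CPM added. After the correction for GC content and length, 7 genes were over 2-fold higher: Atf4 (0.95), Cebpb (0.93) and Sesn2 (0.64) were under 2-fold and Vldlr (1.11) above it, all with 1 CPM added. This comparison and the previous ones share libraries, so their ratios are not independent of each other.

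**Figure D2:**
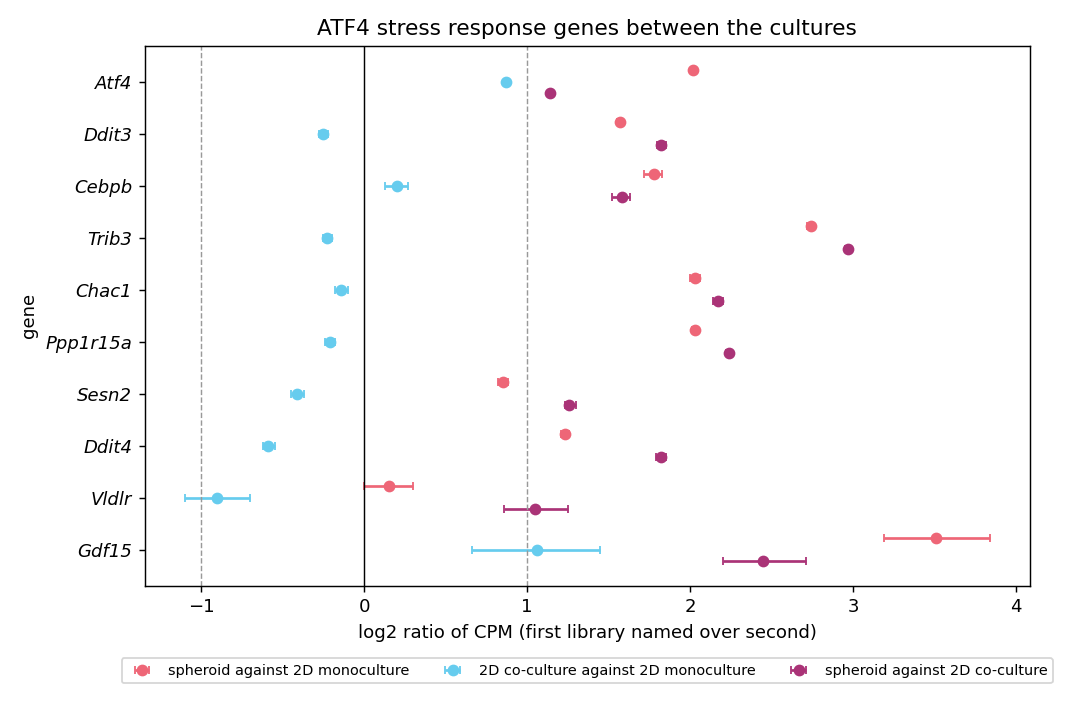
Log2 ratios of CPM between the 3 cultures for each gene, with 95% counting intervals and dashed lines at 2-fold. Ratios of the spheroid to the 2D monoculture run from 0.15 (Vldlr) to 3.51 (Gdf15), while ratios of the 2D co-culture to the 2D monoculture lie between -0.90 (Vldlr) and 1.06 (Gdf15).

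The tumor was lower than the 2D monoculture for most of the genes. Of the 10, 5 were over 2-fold lower (Ppp1r15a, Sesn2, Trib3, Chac1 and Ddit3) and 2 over 2-fold higher (Vldlr and Gdf15), where 18.2% of all genes were over 2-fold lower and 14.8% over 2-fold higher. The median log2 ratio was -1.11, beside -0.14 over all genes. Ppp1r15a (-3.24), Sesn2 (-2.82), Trib3 (-2.47) and Chac1 (-1.86) lay in the lowest 5% of all ratios. Atf4 itself was at -0.72. Cebpb (-0.07) and Ddit4 (-0.11) were near 0, and their signs turned with the scaling, to 0.28 and 0.24 under TMM factors computed on genes of the 2D monoculture. Without Trib3 and Ppp1r15a, 3 of 8 genes were over 2-fold lower and the median was -0.42.

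The choice of scaling moves every comparison with the tumor. Total counts shifted all log2 ratios of tumor to monoculture by 0.24, upper quartiles by 0.25 and TMM factors from genes of the monoculture by 0.35. Relative to these shifts the order of the genes is fixed, and the counts of 5 lower and 2 higher genes did not move. Among all genes over 2-fold apart, the share higher in the tumor was 44.8% with TMM factors, 60.6% with total counts, 60.9% with upper quartiles and 67.7% with TMM factors from genes of the monoculture. Myeloid, endothelial, fibroblast and muscle markers were higher in the same library, as given above, and their part in the levels of the 10 genes was not tested.

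Between spheroid and tumor, the ratio by which Trib3 and Ppp1r15a were selected, 9 of the 10 genes were over 2-fold higher and 1, Vldlr, over 2-fold lower. The background was 26.8% and 27.6% of all genes. Among genes whose mean reached 10 CPM, ranked with 1 CPM added, Ppp1r15a (5.19) and Trib3 (5.17) held places 3 and 4, between Nrxn2 (5.51) and Dusp8 (5.03). With nothing added, the log2 ratios were 5.27 for Ppp1r15a, 5.21 for Trib3, 3.89 for Chac1, 3.67 for Sesn2, 3.08 for Ddit3 and 2.74 for Atf4. Those of Cebpb (1.84), Gdf15 (1.59) and Ddit4 (1.35) were lower, and that of Vldlr was -1.32. Total counts and TMM factors from genes of the monoculture shifted these ratios by -0.36 and -0.32, and the share of all called genes that was higher in the spheroid from 49.2% to 36.3% and 37.7%. With total counts, 7 genes were over 2-fold higher.

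This comparison had the strongest relation to GC content of the 5, with a Spearman's rho across genes of 0.542 and a median log2 ratio of 1.06 for genes with a GC content from 54% to 59%. After the correction for GC content and length, 6 genes were over 2-fold higher and 0 over 2-fold lower. Ppp1r15a was then at 4.19, Trib3 at 3.98, Chac1 at 2.95, Ddit3 at 2.68, Atf4 at 2.17 and Sesn2 at 1.85. Cebpb (0.41), Ddit4 (0.41) and Gdf15 (0.16, or -0.16 with 1 CPM added) were no longer over 2-fold, and Vldlr changed sign, to 0.07.

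**Figure D3:**
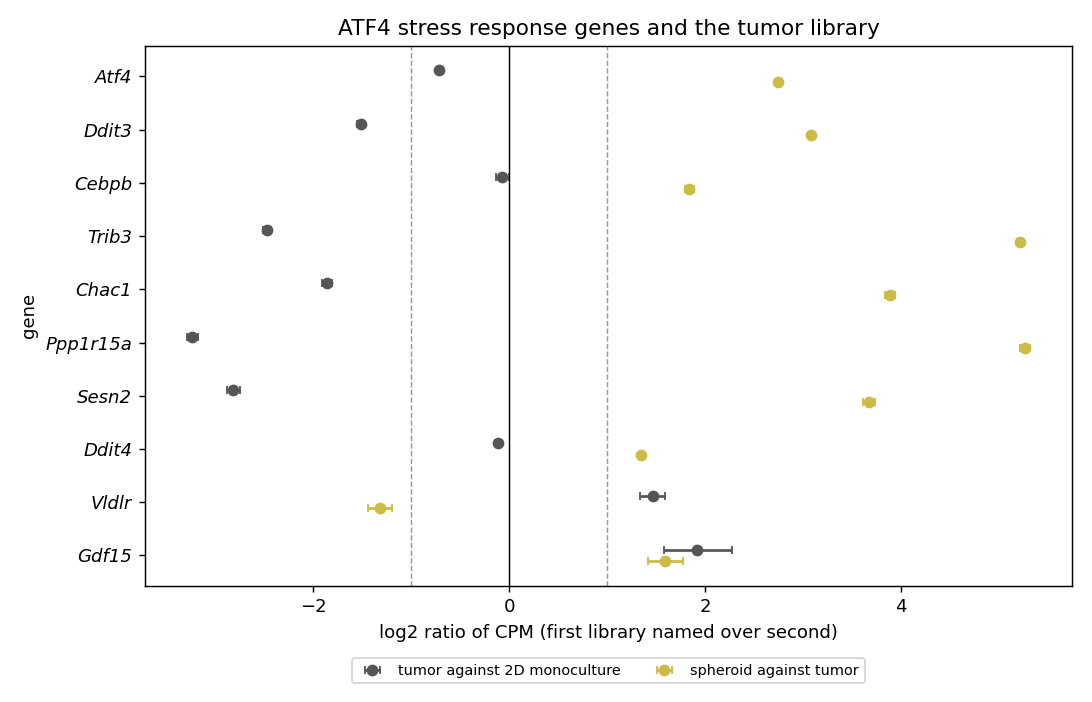
Log2 ratios of CPM of the tumor to the 2D monoculture and of the spheroid to the tumor for each gene, with 95% counting intervals and dashed lines at 2-fold. Tumor to monoculture ratios run from -3.24 (Ppp1r15a) to 1.92 (Gdf15), those of Cebpb and Ddit4 change sign with the scaling, and the spheroid to tumor ratios, by which Trib3 and Ppp1r15a were chosen, run from -1.32 (Vldlr, 0.07 after correction for GC content and length) to 5.27.

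The genes differed in GC content and length, and so did the libraries in their relation to GC content. Across 12666 genes, Spearman's rho between GC content and the log2 ratio was 0.483 for spheroid to monoculture and -0.385 for tumor to monoculture, a description in which genes are not independent replicates. Transcripts of 9 of the 10 genes had a GC content of 54.1% to 67.2%, and Vldlr had 43.8% and the longest transcript, 7971 bases. Genes with a GC content from 54% to 59% had a median log2 ratio of spheroid to monoculture of 0.50.

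When the median of genes of like GC content and length was removed, the median log2 ratio of the 10 genes between spheroid and monoculture was 1.38 and 6 genes were over 2-fold higher. Trib3 was then at 2.16, Atf4 at 1.63, Ppp1r15a at 1.54, Chac1 at 1.43 and Gdf15 at 2.76. Ddit3 (0.94), Ddit4 (0.63) and, with 1 CPM added, Cebpb (0.99) were under 2-fold, Sesn2 was at 0.18, and Vldlr was above 2-fold at 1.37. After the same correction, the tumor had 5 genes over 2-fold lower and 2 over 2-fold higher than the monoculture. Log2 ratios of tumor to monoculture were then -2.60 for Ppp1r15a, -1.80 for Trib3, -1.52 for Sesn2 and 0.47 for Cebpb.

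**Figure D4:**
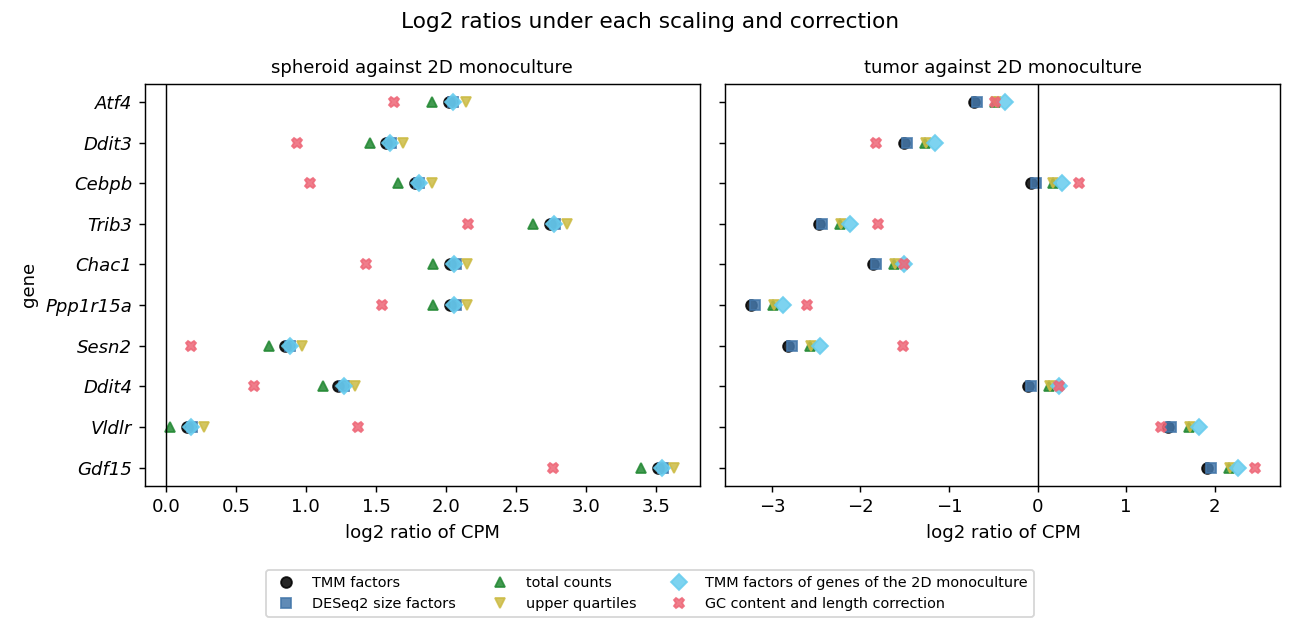
Log2 ratio of each gene under 5 scalings and after correction for GC content and length, for spheroid against 2D monoculture and for tumor against 2D monoculture. In the former panel all values lie at or above 0.03 (Vldlr, total counts) and the correction gives the lowest value for each gene but Vldlr, and in the latter only Cebpb (-0.07 to 0.47) and Ddit4 (-0.11 to 0.24) change sign.

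The 10 genes did not share a single pattern over the 4 libraries. The distance between the profiles of 2 genes, taken on centred log2 values with 1 CPM added, was smallest for Ddit3 and Chac1 (0.55), followed by Ddit4 and Cebpb (0.65) and by Trib3 and Ppp1r15a (0.73). It was largest for Ppp1r15a and Vldlr (4.77). Among 9588 genes whose mean reached 10 CPM, the genes outside the 10 that were most like Atf4 were Slc1a5, a transporter of glutamine (distance 0.16), Odf3l1 and the kinase gene Pim3. Slc1a5 had 179 CPM in monoculture, 303 CPM in 2D co-culture, 626 CPM in spheroids and 96.0 CPM in the tumor, and like Atf4 it was above the monoculture already in the 2D co-culture.

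Dusp8, a phosphatase of stress-activated kinases, and Hoxb9 were the most like both Trib3 (0.53 and 0.63) and Ppp1r15a (0.37 and 0.5), followed by Acot2 for the former and Nrxn2 for the latter. The spheroid and tumor levels by which Trib3 and Ppp1r15a were chosen enter these distances. Their likeness to each other and to these genes is therefore partly set by that choice. Slc4a3 (0.04), the clock gene Nr1d1 and Grik5 were nearest to Ddit3, and Trim46 (0.1), Ache and Nyap1 to Chac1. Adgrg1 (0.08), Trnp1 and Npr2 were nearest to Sesn2, and Amn1 (0.12), Tapbp and Gnb5 to Ddit4. Dusp2 (0.1), Mfsd13a and Gyg were nearest to Cebpb, Anxa4 (0.12), Plxnc1 and Stat2 to Vldlr, and Col5a3 (0.26), Fam84b and Tmem141 to Gdf15. Each distance rests on 4 libraries and is given as a description.

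The counts of related genes that follow stand beside the shares of all genes given above for spheroid and monoculture, 11.2% over 2-fold higher and 17.9% over 2-fold lower. Upstream of ATF4, of 7 genes of the eIF2 kinases and their sensors, 0 were over 2-fold higher and 2 over 2-fold lower than in the monoculture, which is near those shares. The median log2 ratio was -0.76, and -0.20 after the correction for GC content and length. Eif2ak4, which encodes the amino acid sensor GCN2, had 41.9 CPM in monoculture, 18.6 CPM in 2D co-culture, 14.0 CPM in spheroids and 19.3 CPM in the tumor. Eif2ak2, the kinase PKR activated by double-stranded RNA, had 30.7 CPM, 7.83 CPM, 7.74 CPM and 62.2 CPM in the same order. Both were thus lower in the co-culture as well as in the spheroid. Eif2ak3, the endoplasmic reticulum kinase PERK, varied little between the cultures, from 38.8 to 43.9 CPM, and Eif2ak1, the heme-regulated kinase, ranged from 48.5 CPM in the spheroid to 82.8 CPM in the monoculture. Gcn1l1, a partner of GCN2, had 223 CPM in the monoculture and 117 CPM in the spheroid.

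Of the 9 genes for eIF2, its exchange factor eIF2B and the phosphatase partner Ppp1r15b, 0 were over 2-fold higher in the spheroid and 4 over 2-fold lower than in the monoculture, beside 11.2% and 17.9% of all genes. The median was -0.83, and -0.39 after the correction. Among them, Eif2b1 had 78.0 CPM in the monoculture and 32.3 CPM in the spheroid, Eif2b3 had 18.8 and 8.36 CPM, and Eif2b5 had 111 and 52.1 CPM. These encode subunits of the exchange factor that phosphorylated eIF2 blocks.

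Of 9 genes for partners of ATF4 and related factors, 3 were over 2-fold higher in the spheroid and 1 over 2-fold lower (median 0.70, and 0.24 after the correction). Jdp2 had 28.6 CPM in the monoculture and 156 CPM in the spheroid, Nupr1, a stress-induced chromatin factor, had 31.1 and 153 CPM, and Cebpd had 4.93 and 14.6 CPM. Atf3, itself a target with a C/EBP-ATF element in its promoter, had 173 CPM in monoculture, 30.3 CPM in 2D co-culture, 195 CPM in spheroids and 21.7 CPM in the tumor. Unlike the 10 genes, Atf3 was over 2-fold lower in the 2D co-culture than in the 2D monoculture (log2 ratio -2.51, interval -2.57 to -2.46). Atf5 had 319 CPM, 353 CPM, 603 CPM and 43.5 CPM, lowest in the tumor.

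The amino acid arm, which covers transporters, synthesis enzymes and aminoacyl-tRNA synthetases under ATF4, was mixed in the spheroid. Of the 27 of 28 genes whose mean reached 1 CPM, 10 were over 2-fold higher and 3 over 2-fold lower than in the monoculture, with a median log2 ratio of 0.58. Slc7a5, a transporter of large neutral amino acids, had 173 CPM in monoculture, 460 CPM in 2D co-culture, 796 CPM in spheroids and 80.1 CPM in the tumor. Pycr1, an enzyme of proline synthesis, had 11.4 CPM in monoculture, 74.8 CPM in spheroids and 6.97 CPM in the tumor, and a log2 ratio of 2D co-culture to monoculture of 0.49. Asns, asparagine synthetase, had 218 CPM, 292 CPM, 384 CPM and 135 CPM. For these 3 genes the spheroid was highest and the tumor lowest, as for 7 of the 10 genes, although Slc7a5 was over 2-fold above the monoculture in the 2D co-culture too. Eprs, a tRNA synthetase, had 489 CPM, 70.5 CPM, 67.6 CPM and 345 CPM, with both co-cultures low. Against the monoculture, the tumor was lower for 27 of the 27 genes with TMM factors, and 15 of them were over 2-fold lower, beside 18.2% of all genes. The median was -1.04, beside -0.14 over all genes, and -0.75 after the correction for GC content and length. The ratio nearest to 0 was -0.15, less than the shift of 0.24 to 0.35 with other scalings.

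Of the 12 of 14 other targets of ATF4 or CHOP whose mean reached 1 CPM, 6 were over 2-fold higher in the spheroid than in the monoculture and 1 over 2-fold lower (median 0.86, and 0.42 after the correction). Fgf21, a secreted metabolic hormone, had 0.365 CPM in monoculture, 0.14 CPM in 2D co-culture, 14.5 CPM in spheroids and 2.65 CPM in the tumor. Its pattern across the 4 libraries recalls that of Gdf15, the secreted member among the 10 genes, except that Gdf15 was higher in the co-culture than in the monoculture. Gadd45a, a growth arrest gene, had 114 CPM, 58.0 CPM, 499 CPM and 19.6 CPM. Ndrg1, also induced by hypoxia, had 48.0 CPM, 39.3 CPM, 250 CPM and 71.9 CPM.

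The chaperone arm of the unfolded protein response, under ATF6 and XBP1, had a median log2 ratio of -0.03 between spheroid and monoculture, which turned to 0.27 after the correction. Of its 18 genes, 5 were over 2-fold higher and 3 over 2-fold lower, the latter near the 17.9% of all genes. Hspa5, the main chaperone of the endoplasmic reticulum, had 2421 CPM in monoculture, 2747 CPM in 2D co-culture, 2323 CPM in spheroids and 1858 CPM in the tumor. The chaperone genes Hsp90b1 (1995 CPM in the monoculture and 579 CPM in the spheroid) and Dnajc3 (181 and 52.7 CPM) were lower in the spheroid. Herpud1, which acts in the degradation of misfolded proteins and is also a target of ATF4, had 79.3 CPM in the monoculture and 296 CPM in the spheroid.

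**Figure D5:**
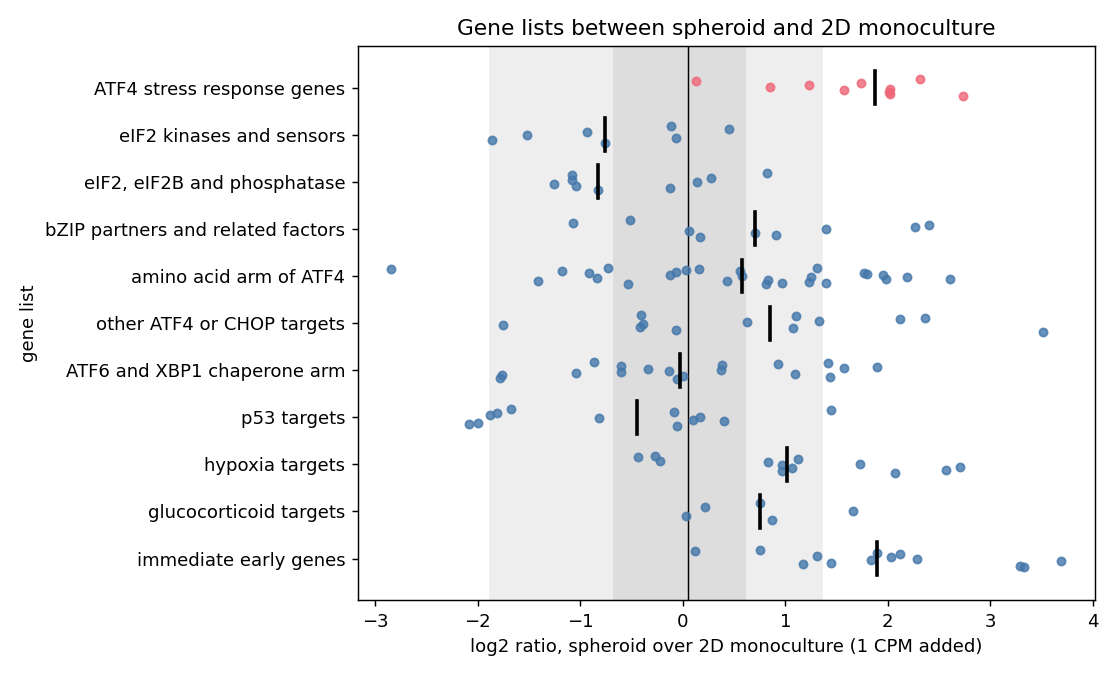
Log2 ratios of spheroid to 2D monoculture, with 1 CPM added, for the 10 genes and 10 related lists. Points are genes whose mean reached 1 CPM, black bars are list medians, the vertical line is the median of all genes (0.05), and the grey bands span the middle 50% (-0.67 to 0.61) and 90% (-1.88 to 1.36) of all genes. The medians of the ATF4 stress response genes (1.88) and of the immediate early genes (1.89) lie beyond the outer band.

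Several of the 10 genes are known to respond also to p53, hypoxia, glucocorticoids or handling of cells, and genes of those responses were listed beside them. Of 12 p53 targets, 1 was over 2-fold higher in the spheroid than in the monoculture and 5 over 2-fold lower (median -0.45, and -0.67 after the correction). Mdm2 had 203 CPM in the monoculture and 47.3 CPM in the spheroid, Ccng1 had 484 and 120 CPM, and Trp53inp1 had 131 and 35.1 CPM. Of the other p53 targets, Btg2 had 31.3 and 87.4 CPM and Cdkn1a had 847 and 813 CPM in the same libraries. Between spheroid and monoculture, 4 of the 12 were higher and 8 lower. The median there was below 0 for the p53 targets and above 0 for the 10 genes. Between spheroid and 2D co-culture, the p53 targets had a median of 0.01, beside 1.81 for the 10 genes. Between tumor and monoculture both medians were negative, at -1.49 for the p53 targets and -1.11 for the 10 genes. The part of p53 in the levels of the 10 genes was not tested.

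Of 12 hypoxia targets, 6 were over 2-fold higher in the spheroid (median 1.02) and 6 in the tumor (median 1.10), both against the monoculture. In either library, 0 were over 2-fold lower. After the correction for GC content and length, the medians were 0.84 in the spheroid and 1.42 in the tumor. By any amount, 9 of the 12 were higher and 3 lower in the spheroid than in the monoculture. Over all genes, 11.2% were over 2-fold higher in the spheroid and 14.8% in the tumor, and 17.9% and 18.2% were over 2-fold lower. Car9, a carbonic anhydrase, had 10.1 CPM in monoculture, 18.3 CPM in 2D co-culture, 65.2 CPM in spheroids and 175 CPM in the tumor. Egln3, an oxygen sensor, had 1.68 CPM, 6.67 CPM, 16.4 CPM and 8.70 CPM, and Vegfa, an angiogenic factor, had 107 CPM, 167 CPM, 453 CPM and 177 CPM. In the tumor, with TMM factors, the 12 hypoxia targets lay above the monoculture and 8 of the 10 genes below it. Of these 8, Cebpb (-0.07) and Ddit4 (-0.11), the latter also induced by hypoxia, were near 0 and changed sign with the scaling. Vldlr (1.47) and Gdf15 (1.92) lay above the monoculture. In the spheroid, both medians lay above the monoculture, at 1.02 for the hypoxia targets and 1.88 for the 10 genes. The part of hypoxia in the levels of the 10 genes was not tested.

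Of the 5 of 6 glucocorticoid targets whose mean reached 1 CPM, 1 was over 2-fold higher in the spheroid (median 0.75). This was Per1, with 52.5 CPM in the monoculture and 168 CPM in the spheroid. Tsc22d3 had 9.1 and 17.4 CPM, and Klf9 had 18.2 and 31.2 CPM.

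Immediate early genes, which respond within minutes to growth factors and to handling, were as far above the monoculture in the spheroid as the 10 genes, with 11 of 13 over 2-fold higher and a median of 1.89 (1.40 after the correction, beside 1.38 for the 10 genes). Egr1 had 12.1 CPM in monoculture, 57.0 CPM in 2D co-culture, 168 CPM in spheroids and 9.71 CPM in the tumor. Fos had 23.7 CPM, 63.2 CPM, 247 CPM and 44.4 CPM, and Fosb had 3.73 CPM, 29.1 CPM, 45.1 CPM and 6.64 CPM. In the 2D co-culture, 6 of the 13 were over 2-fold higher than in the monoculture (median 0.95), beside 3.79% of all genes. The count for the 10 ATF4 stress response genes was 0, which is near that share. The part of handling in the levels of the 10 genes was not tested.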

How the data were processed

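Poly(A)-selected RNA of 4 libraries, 1 per condition, was sequenced. The read counts deposited by the authors are whole numbers per gene symbol and were not normalized. The submitters' processing notes name Trimmomatic, STAR, featureCounts and the build mm10. The strand setting is not given in the sources used here. NOISeq and GFOLD, which the study used, were not applied.

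Counts were scaled to CPM with TMM factors (0.908 to 1.16) from edgeR 4.0.16 in R 4.3.3. DESeq2 1.42.0 size factors, total counts, upper quartiles and TMM factors of the 9188 genes with at least 10 CPM in the 2D monoculture were alternatives. Other steps used Python 3.11.15, numpy 2.4.6, pandas 2.3.3, scipy 1.17.1 and matplotlib 3.10.9. Ratios of single genes had no pseudocount, whereas medians, counts over 2-fold and ranks had 1 CPM added (0.1 CPM as an alternative) among genes whose mean reached 1 CPM (all genes with a read as an alternative). Intervals are exact Clopper-Pearson intervals and, for ratios, exact binomial intervals conditional on the summed reads of both libraries. The depth of 118896900 to 150028663 reads makes 3 reads equal to 0.0185 to 0.0262 CPM. Scripts were tested on simulated data.

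GC content and length came from GENCODE vM21 (GRCm38, the assembly of mm10) for 99.5% of the genes tested. The correction removed the median log2 ratio in 10 classes of GC content by 10 of length. Promoters came from RefSeq GRCm38.p6. Ca9 and Dele1 were matched through synonyms, as Car9 and 0610009O20Rik.

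The 10 genes and the other 15 lists (eIF2 kinases, eIF2 and eIF2B, partners of ATF4, amino acid arm, other targets, chaperones, p53, hypoxia, glucocorticoid and immediate early genes, and markers of melanocytes, myeloid cells, endothelium, fibroblasts and muscle) were chosen with earlier results of these data known. The genes named are the 10, the 3 of each list of related responses with the largest spheroid to monoculture ratio, partners in role (Ppp1r15b, Sesn1, Atf3, Atf5, the eIF2 kinases and Asns), the 3 most alike in profile to each of the 10, and the leading marker of each list in the tumor. Markers are otherwise given as sums or counts. Hspa5, Btg2 and Cdkn1a were added after their values were seen.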

Additional observations from a re-analysis of the deposited data

How the results depend on the processing

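With nothing added, log2 ratios of the 10 genes kept their sign under all settings tried in each comparison, except for Cebpb (-0.07 to 0.47) and Ddit4 (-0.11 to 0.24) between tumor and 2D monoculture and Vldlr (-1.68 to 0.07) between spheroid and tumor. With 1 CPM added, the correction for GC content and length also turned Gdf15 between spheroid and tumor (1.27 to -0.16) and Vldlr between the 2D cultures (-0.70 to 0.07). With that correction, Vldlr turned to 0.07 between spheroid and tumor, the median of the 10 genes there was 1.96 (2.90 without it) and the number of genes over 2-fold lower was 0 (1 without it). The number over 2-fold higher there was 6 with the correction and 7 with total counts (9 with TMM factors and no correction), and 7 with the correction between spheroid and 2D co-culture (9 without it). With Trib3 and Ppp1r15a left out, an alternative chosen after seeing the data, that median was 2.27, and between tumor and monoculture the median was -0.42 (-1.11 with them) and the number over 2-fold lower was 3 (5 with them). Counts over all genes moved more. Genes over 2-fold higher in the 2D co-culture than in the monoculture were 785 with 0.1 CPM added (483 with 1 CPM). With the correction, 2121 genes were over 2-fold higher in the spheroid than in the tumor (3413 without it), 1423 lower in the spheroid than in the monoculture (2278) and 710 lower in the tumor than in the monoculture (2322, and 1542 with upper quartiles or 1299 with TMM factors from genes of the monoculture). Of the genes over 2-fold apart between the 2D cultures, 28.5% were higher in the co-culture, and 39.1% with upper quartiles. No paired analysis was possible because the 4 conditions have a single library each, and no replicate could be left out. Depth limits Gdf15 (88 reads in the monoculture) and Vldlr (299 reads in the 2D co-culture), whose intervals are the widest, and does not limit the other 8 genes, which had at least 2370 reads in each library.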
